A study of Mus musculus with 20 samples.

Results

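Skin thickened by the carcinogen DMBA and the tumour promoter PMA was compared with solvent-treated skin. The comparison took in every small RNA counted, with mature miRNAs kept apart from other classes. Of 20 libraries in the series, 10 enter this comparison: 5 from hyperplastic skin, numbered 1, 2, 5, 7 and 8, and 5 from healthy skin, numbered 2, 3, 4, 5 and 7. The libraries were chosen by their labels. The tissue was skin throughout and the strain FVB/N, which is inbred and albino. Hyperplastic skin had been treated with DMBA, a mutagen that starts skin tumours, and PMA, a phorbol ester that promotes them, while healthy skin had received acetone, the solvent. Both agents and the thickening thus change together and cannot be told apart. Ages, doses and treatment times were not stated in the labels. The labels call the samples biopsies and tie none of them to a mouse, so every p-value refers to the spread among the biopsies as deposited. The remaining 10 libraries, 5 papillomas and 5 squamous cell carcinomas (cSCC) from the same treatment, enter the fits to help estimate the spread. They also take part in the choice of features tested and in the scaling.

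Repeated phorbol ester makes the interfollicular epidermis divide and thicken, and draws inflammatory cells into the dermis. Mature miRNAs are cut from hairpins and steer Argonaute proteins to messages that match the seed, their bases 2 to 8. The other reads in a small RNA library come mostly from pieces of longer RNAs: tRNAs, which carry amino acids to the ribosome, and snoRNAs, which guide chemical modification of ribosomal RNA in the nucleolus. Mitochondrial tRNAs serve the separate ribosomes of mitochondria.

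No mature miRNA passed the test, whereas 19 entries of other classes did. Reads of nuclear tRNAs tended upward, with lysine tRNA of anticodon TTT foremost, and reads of snoRNAs tended downward. Totals were 4753061 to 7395047 counts per library in healthy and 5239742 to 10117810 in hyperplastic skin. A level in CPM is a count per 1e6 counts of the same set (mature miRNAs, or all other classes), scaled with TMM factors. Bulk tissue was sequenced, so fewer cells of a type and less RNA per cell cannot be told apart.

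The mature sequences below belong to some of the miRNAs with the smallest unadjusted p-values among those of at least 50 CPM in 1 group. They are from RefSeq (GRCm38.p6) under the same name. The sequence of miR-204-5p was added because it shares the seed of miR-211-5p. They run 5′ to 3′, with the seed in capitals. The first 3 had higher means in hyperplastic skin.
miR-1247-5p: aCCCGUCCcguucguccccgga
miR-31-3p: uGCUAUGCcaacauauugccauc
miR-211-5p: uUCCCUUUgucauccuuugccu
miR-204-5p: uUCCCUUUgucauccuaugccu
These also had higher means, and the first 4 of them come from the imprinted Dlk1-Dio3 locus of chromosome 12.
miR-541-5p: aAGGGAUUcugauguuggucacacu
miR-329-3p: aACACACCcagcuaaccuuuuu
miR-154-5p: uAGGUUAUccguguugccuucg
miR-127-3p: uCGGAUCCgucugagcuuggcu
miR-34a-5p: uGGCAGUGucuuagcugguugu
These had lower means.
miR-15a-3p: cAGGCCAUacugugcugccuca
miR-193b-3p: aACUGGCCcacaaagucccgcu
No seed recurs in these lines except that of miR-211-5p and miR-204-5p. Of 32 miRNAs looked up, 24 had an entry.

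Among other small RNA classes, 19 of 694 tested entries passed edgeR's quasi-likelihood test at a Benjamini-Hochberg adjusted p under 0.05, a share of 2.74%. Of these, 11 were higher in hyperplastic skin (1.59%) and 8 lower (1.15%). All 11 higher entries were nuclear tRNAs, the largest class at 356 of the 694 tested entries. The 8 lower ones were 7 of 250 tested snoRNA entries and 1 tRNA entry. At an unadjusted p under 0.05 stood 155 entries (22.3%), 88 higher and 67 lower. In 42 entries (6.05%) the 2 groups did not overlap, 21 each way. The higher ones were 20 of the 356 nuclear tRNA entries and 1 piRNA entry. Of the lower ones 17 were among the 250 snoRNA entries and 2 among the nuclear tRNA entries. The count of 19 depended on the fit: 31 entries passed without healthy 4, 42 without hyperplastic 7 and 34 without hyperplastic 8, but 10 without healthy 5, 4 without healthy 7, and 12, 10 and 9 without hyperplastic 1, 2 and 5. With only the 2 groups fitted 1 entry passed, and with the scaling of the mature miRNAs 4 did. The plot of fold change against level shows the split by class.

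**Figure D1:**
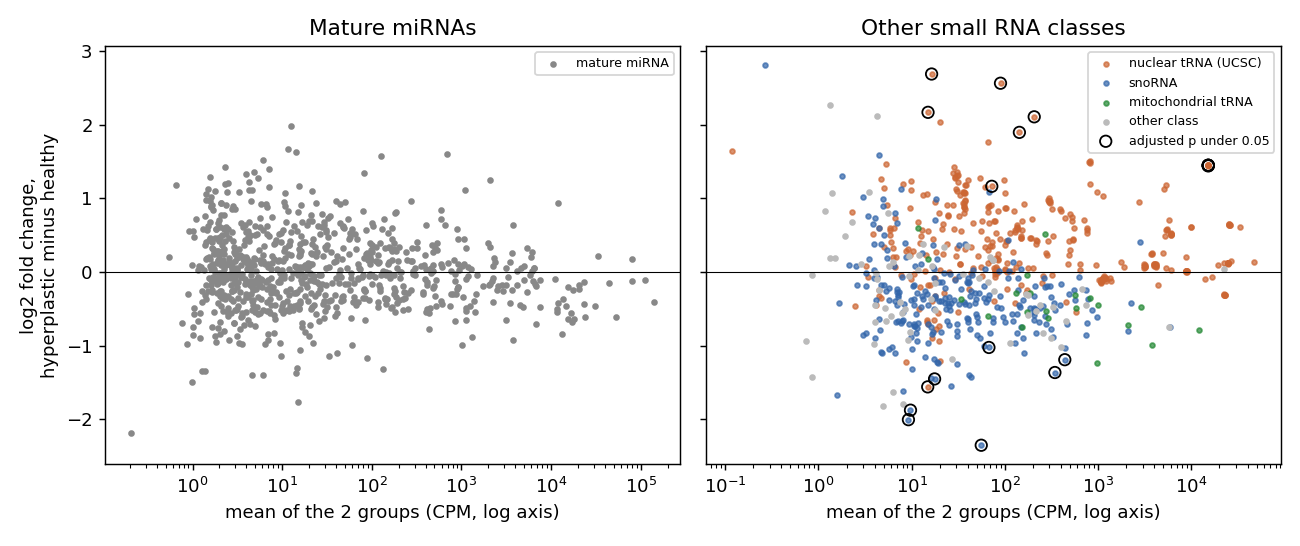
Log2 fold change (hyperplastic minus healthy) against the mean of the 2 groups in CPM on a log axis, 1 point per feature; mature miRNAs left, other classes right, with rings around the 19 entries that passed. Nuclear tRNA entries lie mostly above 0 and snoRNA entries mostly below, while no mature miRNA has a ring.

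Of the 11 higher tRNA entries 7 carry the name LysTTT, for the lysine tRNA that reads AAA codons. Summed over its 9 entries, LysTTT stood at 43780, 17290, 75830, 60890 and 15250 CPM in healthy libraries 2, 3, 4, 5 and 7. In hyperplastic libraries 1, 2, 5, 7 and 8 it stood at 98910, 120400, 186600, 95960 and 123100 CPM. Every hyperplastic library lay above every healthy one, with hyperplastic 5 the highest. The means were 42610 ± 26590 and 125000 ± 36540 CPM (SD, n = 5 each), a log2 fold change of 1.55 ± 0.38 (SE; edgeR with entries summed by anticodon, adjusted p = 0.0442, 5 of 5 libraries higher). LysTTT made up 1.712% to 6.357% of nuclear tRNA counts in healthy and 6.384% to 15.87% in hyperplastic skin. As a share of all counts it ranged from 0.4591% to 2.307% and from 2.434% to 5.143%, and the groups were apart on these unscaled shares too. In papilloma the sum was 24210 to 57010 CPM and in cSCC 35660 to 78650 CPM, all below the lowest hyperplastic library. CPM of the sums use the TMM factors of the summed table. The adjusted p was 0.0526 with only the 2 groups fitted, 0.11 with the scaling of the mature miRNAs, and 0.0142 to 0.143 without 1 library. Of those 10 fits 7 passed the threshold no longer, all with a log2 fold change of at least 1.307.

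The LysTTT reads are not independent evidence entry by entry. A group of 5 entries (chr11.tRNA1816, chr13.tRNA1000, chr19.tRNA639, chr1.tRNA485 and chr19.tRNA107) had nearly equal counts in each of the 20 libraries, as reads split evenly over identical copies would give (chi-square test of equal counts, p from 0.0587 to 0.966). Each of the 5 had a mean of 8119 to 8177 CPM in healthy and 22140 to 22240 CPM in hyperplastic skin (log2 fold changes 1.44 to 1.45, adjusted p = 0.0195 in edgeR), and they count here as 1 signal. Each passed in 8 of 10 fits without 1 library. The other 2 called entries, on chromosome 13, had their own levels. chr13.tRNA83-LysTTT (chr13:21999808-21999881, mm9) had 64.09, 53.59, 166, 64.22 and 41.08 CPM in the healthy and 415.2, 411.8, 508.1, 186.7 and 150.7 CPM in the hyperplastic libraries. All but hyperplastic 8 lay above healthy 4, the highest healthy library. Its log2 fold change was 2.11 ± 0.38 (adjusted p = 0.00385 in edgeR). chr13.tRNA89-LysTTT (chr13:22063656-22063729) stood at 0 to 10.04 CPM in healthy and 10.97 to 47.4 CPM in hyperplastic skin (2.69 ± 0.56, adjusted p = 0.00836). Reads of chr13.tRNA89-LysTTT were few, with means of 7.4 per healthy and 62.6 per hyperplastic library. Both calls held without each library in turn, and both ended when only the 2 groups were fitted. In these entries, unlike in the sum, tumour levels reached the hyperplastic ones or passed them: chr13.tRNA83-LysTTT had 341.9 to 576.9 CPM in papilloma and 411.3 to 970 CPM in cSCC, and chr13.tRNA89-LysTTT had 13.25 to 65.76 and 18.01 to 46.44 CPM. No test was made against the tumours.

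**Figure D2:**
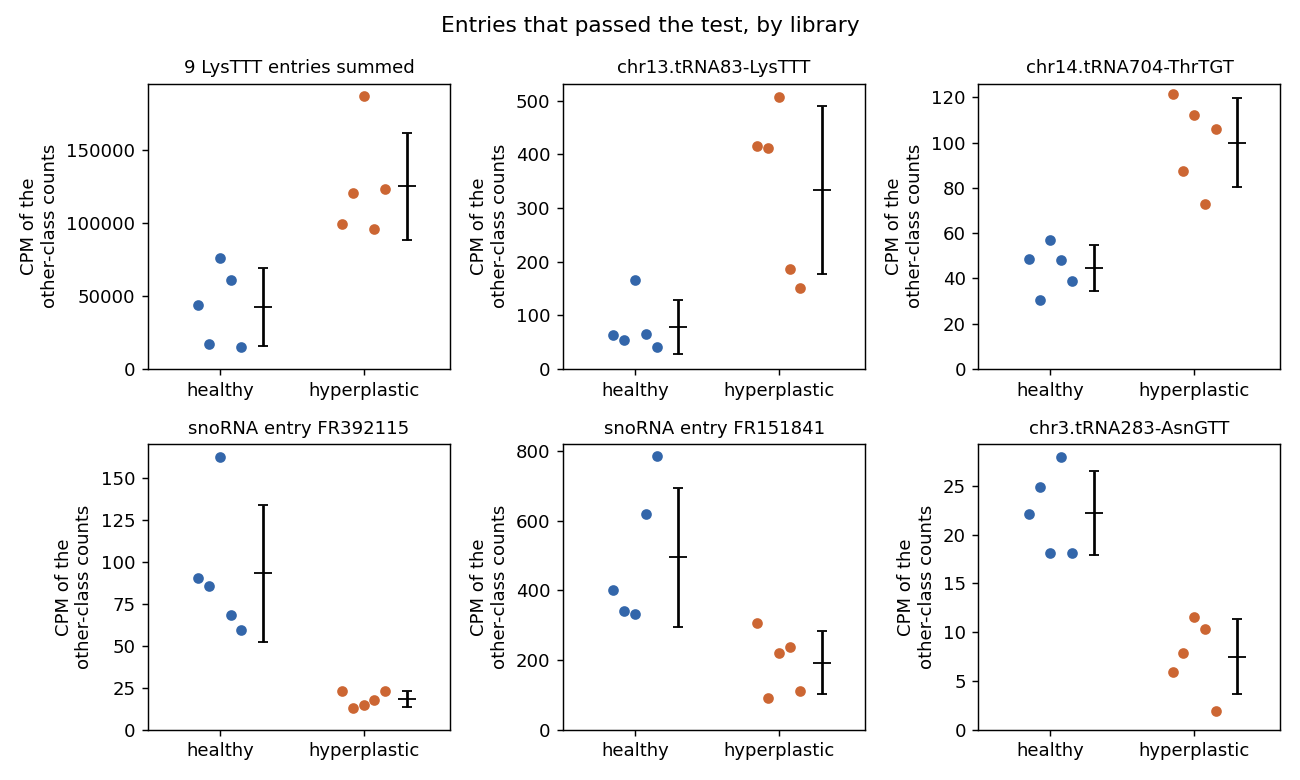
Level in CPM of the other-class counts in each library (points) with mean and SD (bars) for entries that passed the test and for the LysTTT sum. Among the 6 panels the groups overlap in that of chr13.tRNA83-LysTTT, where hyperplastic 8 lies below healthy 4, and are apart in the other 5.

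The other higher tRNA entries served arginine, leucine, cysteine and threonine. The leucine entry had few reads, with means of 9.6 per healthy and 62.4 per hyperplastic library. chr14.tRNA704-ThrTGT (chr14:51684842-51684915) was the most even: 48.62, 30.62, 56.9, 48.05 and 38.66 CPM in healthy against 121.5, 87.39, 112.4, 72.77 and 105.8 CPM in hyperplastic libraries. Its groups did not overlap (log2 fold change 1.16 ± 0.29, adjusted p = 0.0208 in edgeR), but it passed in only 5 of 10 fits without 1 library (adjusted p up to 0.0707). chr13.tRNA948-ArgTCG (chr13:23618324-23618397) leaned on hyperplastic 2, which stood at 424.8 CPM, with 41.91 to 179.3 CPM in the other 4 and 10.3 to 48.33 CPM in healthy skin. Its log2 fold change of 2.56 ± 0.51 (adjusted p = 0.00495) was never below 1.707 without 1 library, and it passed in all 10 such fits. chr6.tRNA170-CysGCA was high in hyperplastic 1, 2 and 5, at 355.1, 354.2 and 297.8 CPM, whereas hyperplastic 7 and 8, at 68.58 and 51.01 CPM, lay inside the healthy range of 19.33 to 117.8 CPM (1.89 ± 0.47, adjusted p = 0.0204, passed in 5 of 10 such fits). chr11.tRNA2021-LeuAAG ranged from 2.008 to 8.288 CPM in healthy and from 4.862 to 45.72 CPM in hyperplastic skin (2.17 ± 0.53, adjusted p = 0.0204, passed in 8 of 10).

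Beyond these calls, nuclear tRNA reads leaned one way. Of 356 tested entries 277 had a log2 fold change above 0 and 78 below, with a median of 0.328 beside 0.007 over all 694 entries. With the scaling of the mature miRNAs the median was 0.366, and between 247 and 286 entries lay above 0 in fits without 1 library. Entries of 1 anticodon may share reads, so they were also summed: of 48 tested anticodons 44 lay above 0 (median 0.358) and LysTTT alone passed. LeuAAG (1.65 ± 0.46, adjusted p = 0.07) and LeuTAG (1.59 ± 0.49, adjusted p = 0.0746) were highest in hyperplastic 1 and 2, at 4674 and 7373 CPM for LeuAAG, while hyperplastic 5 had 890.2 CPM, inside the healthy range of 698.1 to 1398 CPM. ThrTGT and ArgCCT joined LysTTT in not overlapping between groups, at 329.7 to 579.9 against 155.6 to 324.4 CPM and at 1183 to 1829 against 824 to 1069 CPM, with adjusted p = 0.0746 and 0.233. The most abundant tRNA reads, of GlyGCC, were at 255900 ± 35740 CPM in healthy and 322700 ± 91820 CPM in hyperplastic skin (SD, n = 5), and did not pass (adjusted p = 0.608).

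**Figure D3:**
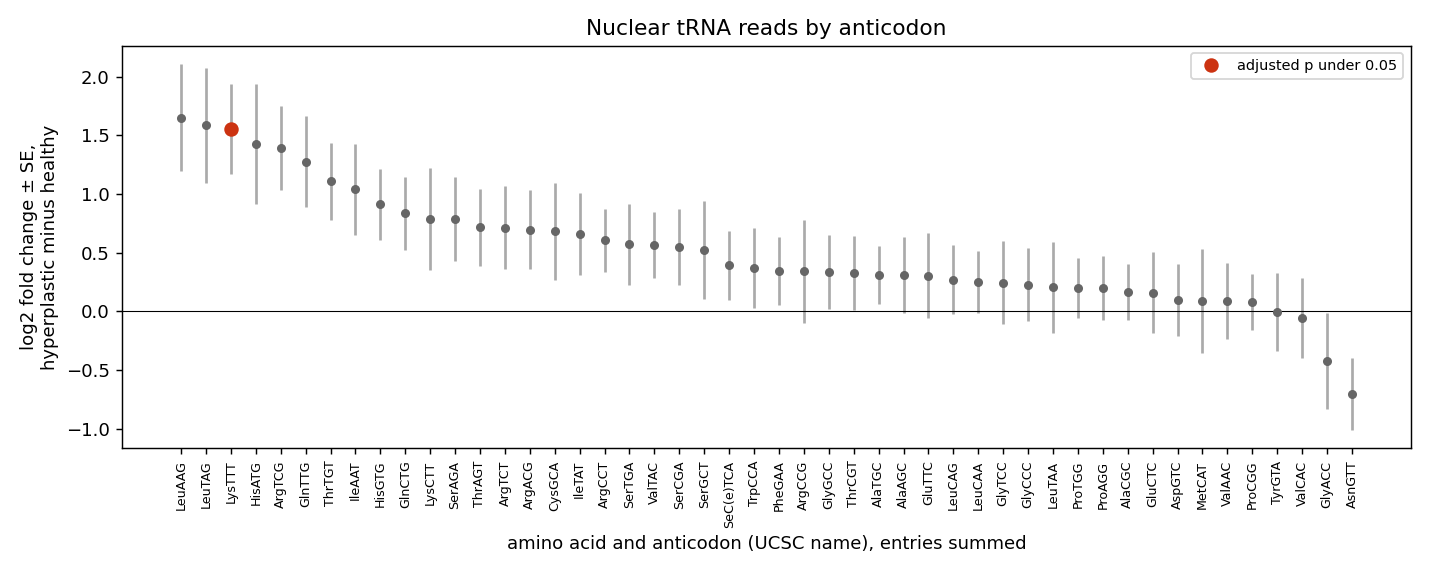
Log2 fold change with its SE for the 48 tested anticodons, entries of each summed, ordered by size; the red point is LysTTT, which passed. All but 4 lie above 0, and most bars near the middle reach close to 0 or cross it.

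The 1 tRNA entry that passed in the lower direction was of asparagine tRNA. It had means of 38.6 reads per healthy and 17.4 per hyperplastic library. chr3.tRNA283-AsnGTT (chr3:96125996-96126070) fell from 18.07 to 27.94 CPM in healthy libraries to 1.907 to 11.55 CPM in hyperplastic ones, with no overlap (log2 fold change -1.56 ± 0.42, adjusted p = 0.0389 in edgeR), and passed in 3 of 10 fits without 1 library. A second entry, chr2.tRNA1947-AsnGTT, had 24.77 to 29.84 against 7.151 to 15.62 CPM, also without overlap, but missed the threshold (-1.20 ± 0.36, adjusted p = 0.0561). Over its 13 entries AsnGTT, 1 of the 4 anticodons below 0, had a log2 fold change of -0.70 ± 0.30 and did not pass (adjusted p = 0.205).

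Among snoRNAs, 7 of 250 tested entries passed, each of them lower in hyperplastic skin. That share of 2.8% is close to the 2.74% over all 694 entries, of which 1.15% were lower. Below 0 lay 205 of the 250 (median -0.416). The files give these entries by identifier only, so which snoRNAs they are was not determined. FR392115 (chr2:166890498-166890586, mm9) showed the clearest fall. Its levels in healthy libraries 2, 3, 4, 5 and 7 were 90.62, 85.48, 162.7, 68.15 and 59.21 CPM, from 98 to 243 reads. The hyperplastic libraries 1, 2, 5, 7 and 8 had 23, 12.73, 14.59, 17.52 and 23.36 CPM, from 24 to 49 reads. Even the highest hyperplastic library stood well under the lowest healthy one. The log2 fold change was -2.35 ± 0.46 (adjusted p = 0.00495 in edgeR), and this entry alone of the 19 passed in every leave-one-out fit and under each other setting tried. In papilloma it ranged from 18.57 to 110.7 CPM, which reaches into both groups, and in cSCC from 25.1 to 112.8 CPM, where each library lay above the highest hyperplastic one.

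FR151841 (chr17:35384120-35384195) had 399.5, 340.7, 331.3, 618.7 and 784.2 CPM in healthy and 305.5, 89.99, 219.4, 237.3 and 109.7 CPM in hyperplastic libraries. No hyperplastic library reached the healthy ones, although hyperplastic 1 came close (log2 fold change -1.37 ± 0.37, adjusted p = 0.0389 in edgeR). Of the other 5 entries, the one at chr2:26768368-26768435 fell from 610.2 ± 234.9 to 267.4 ± 45.4 CPM (adjusted p = 0.0208) and the one at chr1:63225251-63225328 from 90.36 ± 24.96 to 44.37 ± 10.67 CPM (adjusted p = 0.0477; SD, n = 5 each). The entry at chr5:147646410-147646480 went from 25.75 to 9.453 CPM (adjusted p = 0.0482). The last 2 are nested at chr15:5068404-5068484 and may share reads, with means of 14.81 and 15.3 CPM in healthy and 3.644 and 4.119 CPM in hyperplastic skin. In those 2 healthy 3, at 2.552 CPM, lay among the hyperplastic libraries. Apart from FR392115 these calls were often lost without 1 library: of 10 such fits the chr2:26768368 entry (FR293094) passed in 5, FR151841 in 4, the chr5 entry (FR381802) in 3, each nested entry in 2 and the chr1 entry (FR263408) in 1. Over all classes the 8 lower calls became 1 without healthy 5, healthy 7 or hyperplastic 2, 2 without healthy 2 or hyperplastic 5, 3 without hyperplastic 1, but 12 without healthy 4 and 17 without hyperplastic 7.

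As a class, snoRNAs took 1.025%, 1.227%, 1.313%, 1.112% and 1.331% of all counts in the healthy libraries and 0.9657%, 0.8313%, 1.022%, 0.8561% and 0.7976% in the hyperplastic ones. The groups did not overlap, though hyperplastic 5 and healthy 2 nearly met. The mean share was 1.202% ± 0.1314 in healthy and 0.8946% ± 0.09517 in hyperplastic skin (SD, n = 5; exact permutation test, two-sided, p = 0.00794, the smallest that 252 splits allow; adjusted over 10 classes p = 0.0397). A share depends on the rest of the library. Per 100 mature miRNA counts the difference had an adjusted p = 0.179, and without 1 library it was 0.0397 to 0.0794, with 8 of 10 above the threshold (exact permutation tests).

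The piRNA share was 0.2971% ± 0.06258 in healthy and 0.1837% ± 0.05659 in hyperplastic skin, again without overlap (exact permutation p = 0.00794, adjusted p = 0.0397). Without 1 library the adjusted p was 0.0397 to 0.0794, with 8 of 10 above the threshold (exact permutation tests). Of this class 69.28% was 1 entry, FR283123 (chr16:23109062-23109090), which lies within the snoRNA entry FR283278 (chr16:23109026-23109094) and carried nearly the same counts. That pair was lowest in hyperplastic 2, where the piRNA entry held 0.01617% of counts against 0.1215% to 0.1767% in the other 4 hyperplastic libraries. Without the pair the piRNA difference was -0.02855 percentage points (exact permutation, adjusted p = 0.106). With only the most counted entry of each overlapping set, the class held a mean of 0.003145% in healthy and 0.003187% in hyperplastic skin. Most piRNA counts thus lay in entries that overlap an entry with more counts. The small rest differed by 4.22e-05 points (exact permutation, adjusted p = 0.976), which does not test the whole share again. The snoRNA difference without the pair was -0.2215 points (adjusted p = 0.0794).

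**Figure D4:**
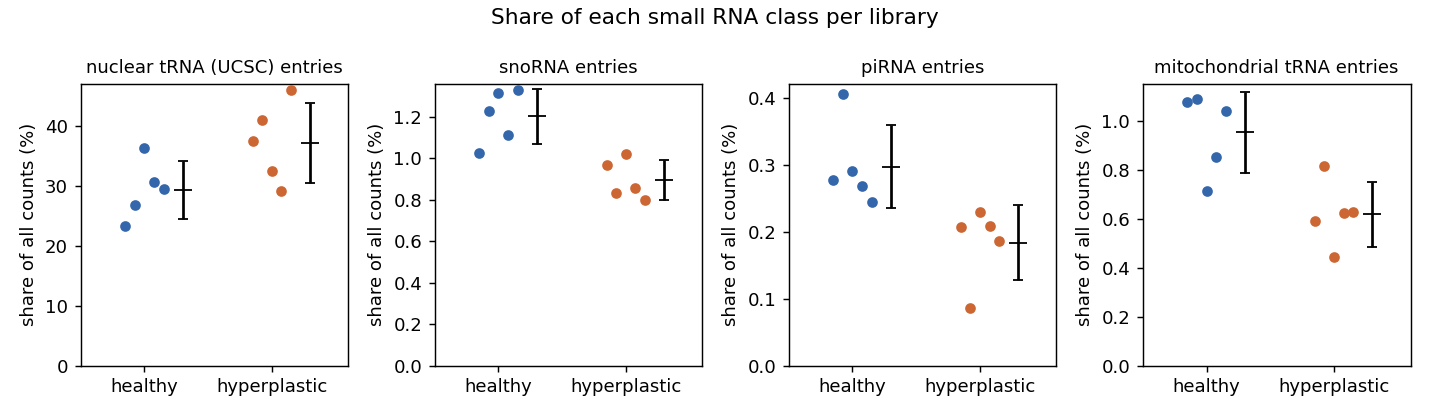
Share of all counts in percent for 4 classes, 1 point per library, with mean and SD (bars). snoRNA and piRNA shares do not overlap between groups, while nuclear and mitochondrial tRNA shares do.

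Nuclear tRNAs took 23.23%, 26.81%, 36.29%, 30.54% and 29.49% of counts in healthy libraries and 37.43%, 40.94%, 32.4%, 29.06% and 45.86% in hyperplastic ones. The means of 29.27% ± 4.833 and 37.14% ± 6.677 (SD, n = 5) did not differ past the threshold (exact permutation p = 0.0714, adjusted p = 0.159). Healthy 4 was the highest healthy library and hyperplastic 7 the lowest hyperplastic one, and without the former the adjusted p was 0.111, without the latter 0.0794 (exact permutation). Mature miRNAs mirrored this, at 67.55% ± 4.724 and 60.4% ± 6.561 (exact permutation, adjusted p = 0.159). Mitochondrial tRNAs held 0.9522% ± 0.165 and 0.6188% ± 0.1325 (exact permutation p = 0.0159, adjusted p = 0.0529). Ribosomal RNA pieces held 0.6794% ± 0.06336 and 0.7176% ± 0.1727 (exact permutation, adjusted p = 0.952).

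Among mitochondrial tRNAs 18 of 21 tested lay below 0 (median -0.481), and none passed. The pair with the smallest p-values just missed. Histidine tRNA mt-Th stood at 4407, 3319, 4388, 5359 and 7902 CPM in healthy and 1991, 2314, 3005, 3964 and 1459 CPM in hyperplastic libraries (log2 fold change -0.995 ± 0.28, adjusted p = 0.0524 in edgeR). Tryptophan tRNA mt-Tw stood at 754 to 3105 CPM in healthy and 351.4 to 878.8 CPM in hyperplastic libraries, which overlap (-1.23 ± 0.35, adjusted p = 0.0531). Both genes are given in full here because the table pairs their reads with a known gene; the sequences are from the GENCODE M21 transcripts (GRCm38), written as DNA.
mt-Th: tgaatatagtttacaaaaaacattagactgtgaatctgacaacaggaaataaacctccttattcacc
mt-Tw: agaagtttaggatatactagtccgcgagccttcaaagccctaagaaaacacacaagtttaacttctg
They lie at chrM:11546-11612 and chrM:4950-5016.

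No mature miRNA passed: 0 of 850 tested (0%), with a smallest Benjamini-Hochberg adjusted p of 0.442 in edgeR. At an unadjusted p under 0.05 stood 75 (8.82%), 48 higher and 27 lower. DESeq2 also called 0, with 85 at an unadjusted p under 0.05. The groups did not overlap in 9 miRNAs (1.06%). These were higher for miR-674-3p, miR-494-3p, miR-744-3p, miR-337-5p, miR-496-3p and miR-182-3p, and lower for miR-27a-5p, miR-489-5p and miR-467c-5p. In simulated counts of this comparison the test recovered 94.68% of changes of 2 and 35.11% of changes of 1 on the log2 scale, so smaller changes may have been missed. The spread within the groups was alike, with a median SD of log2 CPM of 0.414 in healthy and 0.386 in hyperplastic skin over the 298 miRNAs of at least 50 CPM in 1 group.

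Among those 298, miR-1247-5p had the smallest p-value of the higher ones. Its levels were 48.68, 58.47, 161.6, 31.89 and 18.98 CPM in healthy and 275, 306.7, 234.6, 58.57 and 74.21 CPM in hyperplastic libraries (log2 fold change 1.57 ± 0.48, unadjusted p = 0.00291, adjusted p = 0.442 in edgeR). Hyperplastic 1, 2 and 5 lay above all healthy libraries, and hyperplastic 7 and 8 below healthy 4. The same 3 libraries lay above all healthy ones, and the same pair below healthy 4, in miR-31-3p, of a hairpin induced in wounded and inflamed epidermis. It had 1050, 875, 2892, 935.9 and 353.8 CPM in healthy and 4093, 3235, 4477, 1472 and 1208 CPM in hyperplastic libraries (1.25 ± 0.45, adjusted p = 0.442). Its other arm, miR-31-5p, had 3964 to 13650 and 3313 to 37350 CPM (0.94 ± 0.54, adjusted p = 0.61). miR-211-5p, from an intron of the melanocyte gene Trpm1, had 77.53, 224.6, 1107, 114.2 and 188.8 CPM in healthy and 1608, 1387, 1474, 310.2 and 402.4 CPM in hyperplastic libraries (1.598 ± 0.58, adjusted p = 0.442). miR-204-5p, of the same seed and hosted by Trpm3, stood at 883.7 ± 343.5 and 949.3 ± 203.1 CPM (SD, n = 5; 0.10 ± 0.30, adjusted p = 0.953).

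Without healthy 4 the test called miR-211-5p (2.73, adjusted p = 0.0159) and miR-1247-5p (2.21, adjusted p = 0.0245), and no other miRNA. miR-31-3p passed in none of the 10 fits without 1 library. In hyperplastic 7 and 8 the summed smooth muscle miRNAs (miR-143 and miR-145 arms, 4 of 4 tested) stood at 83560 and 74470 CPM, against 36840 to 43010 CPM in hyperplastic 1, 2 and 5 and 53660 to 110500 CPM in healthy libraries. Striated muscle miRNAs (miR-1, miR-133, miR-206 and others, 11 tested) stood there at 55420 and 43360 CPM, against 17860 to 34170 CPM in the other 3 and 22260 to 83030 CPM in healthy skin. None of the 4 smooth muscle members was at 0 in a library. This split was not particular to muscle. Fibroblast and mesenchyme miRNAs summed to 319000 and 300800 CPM in hyperplastic 7 and 8, against 148700 to 154000 CPM in the other 3. The let-7 family had 32960 and 32780 against 22150 to 23290 CPM. Keratinocyte miRNAs did not split so, at 202600 and 164900 against 186100 to 213800 CPM. The part of these lists in the differences was not tested.

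**Figure D5:**
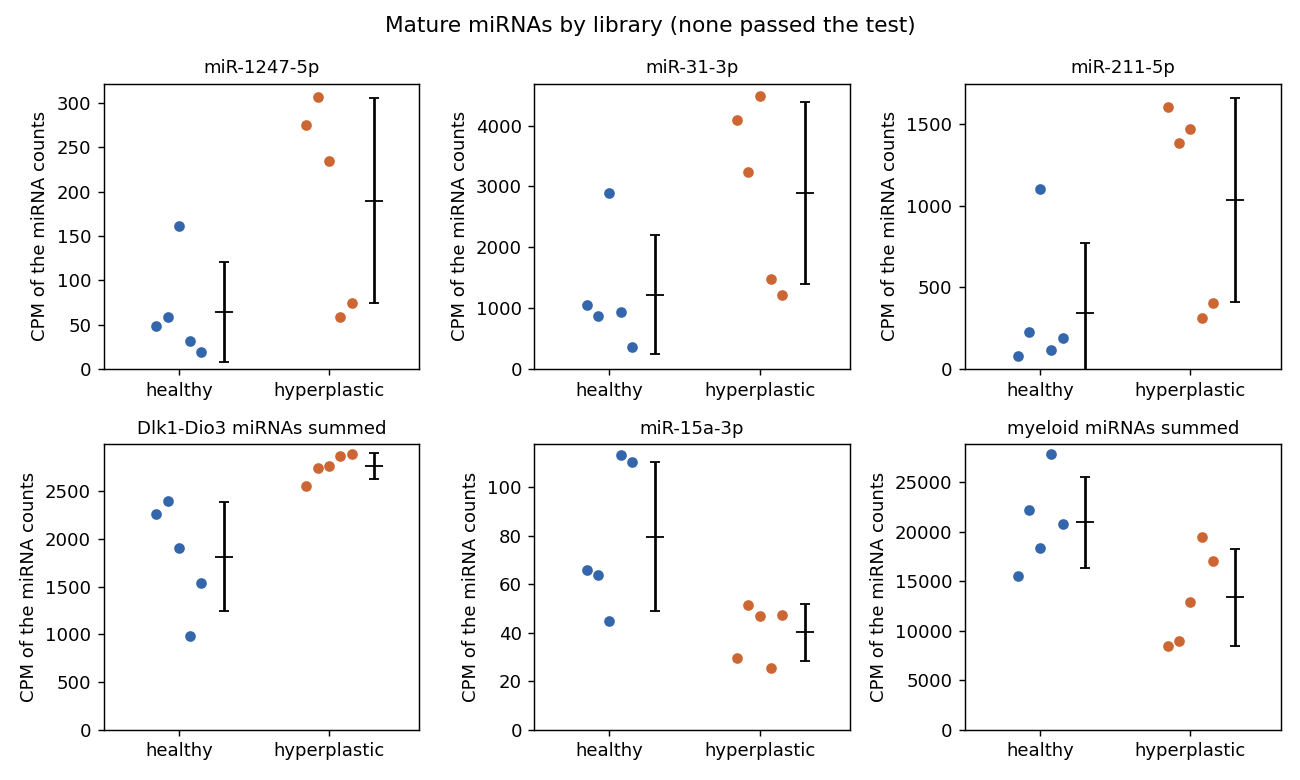
Level in CPM of the mature miRNA counts in each library (points) with mean and SD (bars; that of miR-211-5p in healthy skin is clipped at 0) for 4 miRNAs and 2 summed lists. Hyperplastic 7 and 8, the 2 right-hand points, stand low in miR-1247-5p, miR-31-3p and miR-211-5p and high in the myeloid sum.

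Other miRNAs with higher means did not pass either. miR-34a-5p, a target of p53, had 2539 to 3754 CPM in healthy and 3680 to 6342 CPM in hyperplastic skin (log2 fold change 0.63 ± 0.24, adjusted p = 0.462 in edgeR). Only hyperplastic 7 lay within the healthy range. miR-19a-3p, of the growth-promoting miR-17-92 cluster, stood at 426.5 ± 229.2 and 761.9 ± 289.1 CPM, and miR-345-5p at 719.9 ± 140.1 and 1074 ± 188.1 CPM (SD, n = 5 each; adjusted p = 0.506 for both). miR-3102-3p.2-3p had 34.24 ± 5.82 and 54.26 ± 21.61 CPM (adjusted p = 0.506).

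The Dlk1-Dio3 locus holds a large cluster of miRNAs that is expressed from the maternal chromosome and is active in embryo, brain and muscle. Of its 81 tested members none passed, 16 had an unadjusted p under 0.05, all higher (48 of all 850 miRNAs, 5.65%, did so), and 70 lay above 0, with a median of 0.53 beside -0.008 over all 850 miRNAs. Their summed level was 2263, 2394, 1905, 984.7 and 1535 CPM in healthy and 2556, 2747, 2767, 2867 and 2889 CPM in hyperplastic libraries. The hyperplastic libraries lay close together and above each healthy one. All 16 members of at least 50 CPM lay above 0. Examples are miR-541-5p at 60.53 to 156.2 against 125.7 to 207.3 CPM, and miR-329-3p at 39.34 to 84.56 against 73.15 to 142 CPM. miR-127-3p had 66.01 to 186.2 against 174.5 to 301.3 CPM, miR-154-5p 22.48 to 55.89 against 45.98 to 73.25 CPM, and miR-299-5p 11.16 to 63.11 against 55.34 to 77.77 CPM. Each of the 5 had overlapping groups (adjusted p = 0.442 to 0.506 in edgeR). Of the 6 miRNAs that were higher without overlap, 3 belong to this locus, among them miR-494-3p at 39.41 to 56.54 against 61.1 to 73.04 CPM. The median stayed between 0.258 and 0.536 without 1 library and between 0.471 and 0.791 under the other settings. Of the 81, 80 are listed at chr12:110801919-110981995 (mm9), so they may share 1 transcript and are not separate pieces of evidence. miR-1247-5p was not in this list, though it is on the same chromosome. In GRCm38 it lies at chr12:110278094-110278115, and miR-541-5p of the list at chr12:109742422-109742446.

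Lower means were found for some miRNAs of leukocytes, vessels and muscle, again with no call. Among the lower ones of at least 50 CPM in 1 group, miR-15a-3p had the smallest p-value, though not among lower miRNAs of any level. It had 65.68, 63.87, 44.6, 113.2 and 110.4 CPM in healthy and 29.72, 51.56, 47.03, 25.32 and 47.34 CPM in hyperplastic libraries (log2 fold change -0.99 ± 0.29, adjusted p = 0.442 in edgeR). Its other arm, miR-15a-5p, had a log2 fold change of 0.006. miR-5127 stood at 123 ± 37.99 and 54.65 ± 23.73 CPM (SD, n = 5; -1.17 ± 0.39, adjusted p = 0.442). miR-142-5p, of blood cells, had 674 to 2093 and 436 to 1032 CPM, and miR-150-5p, of mature lymphocytes, 2678 to 8231 and 1305 to 4894 CPM (adjusted p = 0.442 and 0.506). The other lymphocyte miRNAs were mixed. The log2 fold change was 0.595 for miR-155-5p and 0.348 for miR-342-5p, but -0.126 for miR-342-3p and -0.979 for miR-150-3p. Endothelial miR-126-3p had 17050 ± 5874 and 9535 ± 5324 CPM, with hyperplastic 7 at 18970 CPM (-0.84 ± 0.32, adjusted p = 0.446). For miR-145-5p and miR-143-3p, which lie together on chromosome 18, the log2 fold changes were -0.62 ± 0.27 and -0.67 ± 0.30 (adjusted p = 0.506 for both). miR-193b-3p had 6602 to 11530 CPM in healthy and 3407 to 8168 CPM in hyperplastic skin (-0.71 ± 0.26, adjusted p = 0.442), and miR-365-3p 691.8 ± 168.7 and 509.7 ± 168.4 CPM (adjusted p = 0.676). The remaining 4 were miR-29b-3p (-0.64), miR-326-3p (-0.77), miR-30a-3p (-0.52) and miR-191-5p (-0.55), with adjusted p = 0.506 to 0.526. Of 21 such miRNAs, higher or lower, whose other arm was tested, the 2 arms had the same sign in 18.

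By list, 8 of 8 myeloid members lay below 0 (median -0.564), with a summed level of 15530 to 27830 CPM in healthy and 8431 to 19420 CPM in hyperplastic skin. Below 0 were also 4 of 4 smooth muscle members (median -0.618), 2 of 2 endothelial (-0.605), 9 of 11 striated muscle (-0.487) and 10 of 11 miR-30 family members (-0.425). The lymphocyte list was mixed, 3 of 5 below 0 (-0.126). Of the erythroid list 3 of 5 lay above 0 (0.27), with sums of 5039 ± 2137 CPM in healthy and 6316 ± 4430 CPM in hyperplastic skin (SD, n = 5), but without hyperplastic 7, the highest at 12740 CPM, the median was -0.302. Above 0 lay 8 of 9 miR-34 family members (0.367) and 3 of 3 melanocyte members (1.598), and the summed melanocyte level was 688.5 to 2213 CPM in healthy and 957.9 to 2737 CPM in hyperplastic skin. In the let-7 family 16 of 21 lay below 0 (-0.182), which turned to 9 of 21 with total counts. That scaling shifts all miRNAs by a median of 0.222, and left 7 of 8 myeloid and 6 of 11 miR-30 members below 0. Keratinocyte miRNAs (miR-203 and miR-205 arms) were level, at 146800 to 241100 and 164900 to 213800 CPM summed (median 0.1), and the miR-200 family of epithelia had a median of 0.032. The phorbol ester and inflammation list had 14 tested members (median 0.141, 8 above and 6 below 0). The remaining 8 lists had medians of -0.371 (miR-193 and miR-365, 5 of 6 below 0), -0.362 (fibroblasts and mesenchyme, 9 of 13 below), -0.215 (neurons and glia, 5 of 9 below), -0.166 (hypoxia, 1 of 2 below) and -0.087 (the Sfmbt2 intron cluster, 40 of 65 below). For the miR-183 cluster it was 0.025 (4 of 6 above 0), for the miR-15/16 seed family 0.06 (9 of 15 above) and for miR-17-92 with its paralogues 0.138 (16 of 23 above). No member of the 22 lists passed.

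None of the 5 most abundant miRNAs passed. miR-29a-3p had 160300 ± 50580 and 120400 ± 51840 CPM (SD, n = 5; log2 fold change -0.41 ± 0.29), miR-205-5p -0.11 ± 0.24, miR-24-3p -0.12 ± 0.22, miR-203-3p 0.18 ± 0.26 and miR-21-5p 0.22 ± 0.33 (edgeR, adjusted p = 0.676 to 0.935). miR-21-5p, raised in many tumours, ranged from 14930 to 50200 CPM in healthy and from 9919 to 51050 CPM in hyperplastic skin, the lowest in hyperplastic 7. The signs of miR-205-5p and miR-24-3p turned with total counts, to 0.117 and 0.094, and those of miR-21-5p and miR-203-3p without single libraries.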

How the data were processed

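Per the labels' protocols, a Qiagen miRNeasy kit yielded the total RNA, and small RNA libraries were prepared for SOLiD sequencing and selected for size on gels. The authors deposited 1 table of whole-number read counts per feature and library, without normalization. The submitters' processing notes name mm9. Of 163 Ensembl transcript entries found in GENCODE M21, 158 lie at their GRCm38 coordinates instead, so those outside the mitochondrial genome (156) are uncertain and a fit without them was added. Strand and the handling of reads with several matches were not stated, so entries of 1 tRNA type, overlapping entries and close miRNA relatives may share reads.

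Mature miRNAs (1137, of which 850 tested) and other entries (990, of which 694 tested) were fitted apart in edgeR 4.0.16 (R 4.3.3): filterByExpr by group (minimum count 10, total 15), TMM, 1 term per group over all 20 libraries, and the quasi-likelihood F test of hyperplastic minus healthy, two-sided, with Benjamini-Hochberg adjustment and a threshold of 0.05. SE was derived from F. Class shares were compared by an exact permutation test over 252 splits, adjusted over 10 classes. In simulated counts of the other classes the fit recovered 96.91% of changes of 2 and 45.74% of changes of 1 on the log2 scale, and it called 9 of 473 unchanged entries (7 of 611 among miRNAs).

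The comparison, the 22 miRNA lists and the tests were chosen with earlier results of these data known. Named miRNAs are the 12 smallest unadjusted p-values each way at 50 CPM or more in 1 group, the 5 most abundant, miR-21, miR-31, miR-193b, miR-203, miR-205 and miR-365, with other arms and list members in part as counts. Named entries of other classes are those that passed and the smallest p-values of a class. The 9 miRNAs without overlap, the chromosome 16 pair, chr2.tRNA1947-AsnGTT and the anticodon sums other than LysTTT were named after their values were seen. Alternatives were DESeq2 1.42.0 with its size factors, other filters and scalings, other sets of libraries or entries, and the replicate number as a block.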

Additional observations from a re-analysis of the deposited data

Results flagged for a closer look

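In 122 sets of 5 libraries (each reported feature or class share in each group), 14 held a library far from the other 4. For independent, normally distributed values chance meets the rule used in about 1 of 20 sets. Here normality was not checked and the sets are not independent, as 5 flags are LysTTT entries counted above as 1 signal. The 14 therefore cannot be set against that rate. Healthy 4 stood high in miR-1247-5p (161.6 CPM), miR-31-3p (2892 CPM), miR-211-5p (1107 CPM) and chr13.tRNA83-LysTTT (166 CPM), where the next healthy library had 58.47, 1050, 224.6 and 64.22 CPM. Hyperplastic 5 stood high in the 5 LysTTT entries that share reads, chr13.tRNA1000, chr11.tRNA1816, chr19.tRNA639, chr1.tRNA485 and chr19.tRNA107, at 36850, 37010, 36750, 36790 and 36920 CPM. Hyperplastic 7 stood high in miR-126-3p (18970 CPM, next 8250) and miR-143-3p (22330 CPM, next 11780). Healthy 7 stood high in mt-Tw (ENSMUST00000082397, 3105 CPM, next 1360) and in the snRNA share (0.04954% of all counts, next 0.02287%). Healthy 2 stood high in miR-154-5p (55.89 CPM, next 26.99).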

How the results depend on the processing

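Of 54 fold changes under the alternatives, 829 of 990 values kept their direction and side of the threshold, 131 lost and 21 gained a call, and 9 changed sign. The cause was not tested. For mature miRNAs 0 were called except with the replicate block (4: miR-31-3p, miR-18a-5p, miR-1247-5p and miR-296-3p, all higher) and without healthy 4 (leave-one-out 0 to 2). For other classes, 19 in the report, the calls were 29 with a filter of 50 CPM, 59 in DESeq2, 1 with only the 2 groups, 10 with the replicate block, 4 with miRNA scaling, 3 with tRNAs summed by anticodon and 4 to 42 in leave-one-out fits. Added after seeing the data, the fit without Ensembl entries outside the mitochondrial genome called 32. All features in 1 fit gave 5 calls. The labels do not say whether the replicate numbers pair samples. Same-numbered libraries (2, 5 and 7) correlated at -0.086 to 0.07 (miRNAs) and -0.084 to 0.268 (other classes). In the other classes hyperplastic 7 correlated best with healthy 7, whereas every other best match had a different number. So few shared numbers cannot decide whether samples are paired.

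The snoRNA share difference lost its call per 100 mature miRNA counts (-0.3064), with 1 entry per overlapping set (-0.2944) and without the chromosome 16 pair (-0.2215), and was -0.3511 to -0.2746 without 1 library. That of piRNA lost it per 100 miRNA counts (-0.1377) and without the pair (-0.02855), and was -0.1266 to -0.08646 without 1 library. With 1 entry per overlapping set its sign changed (4.22e-05), but the class then held only 0.003145% of healthy and 0.003187% of hyperplastic counts. The settings without the pair and with 1 entry per overlapping set were added after seeing the data. Signs also changed for miR-205-5p and miR-24-3p with library sizes without the top 5 miRNAs (0.184 and 0.155) and total counts (0.117 and 0.094). Without 1 library miR-21-5p ranged from -0.071 to 0.362, miR-203-3p from -0.017 to 0.255 and the rRNA share from -0.02547 to 0.07909.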
